A study of Homo sapiens with 6 samples.

Results

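The genes examined were 10 receptors of the seven-transmembrane class that leukocytes use to sense chemoattractants or cannabinoids: CXCR4, CCR1, CCR2, CX3CR1, CXCR2, FPR1, C3AR1, C5AR1, PTAFR and CNR2. They were taken by symbol from the 55765 rows of the deposited count table, and each of the 10 symbols was found there. They were chosen with the results of this same comparison in view, so their levels and differences are given as a description, and no significance is drawn from them. The cells were OCI-AML2, an established line from acute myeloid leukaemia, which the labels describe as grown from single-cell clones. In the first group, 3 libraries came from cells given MRT199665 at 100 nM for 48 h. In the second, 3 libraries came from cells given the vehicle for the same 48 h. The labels call MRT199665 a MARK inhibitor, and the compound also acts on SIK kinases of the same family. The kit reads the 3′ ends of polyadenylated RNA, and the measure was a count of reads per gene. Whether libraries of the same treatment came from separate cultures is not stated, so p-values measure no more than the differences among these libraries, and that spread may be technical.

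Chemoattractant receptors are G protein-coupled receptors. Binding of a chemokine, a complement fragment, a formylated peptide or a lipid activates inhibitory G proteins, whose beta-gamma subunits then activate phosphoinositide 3-kinase gamma and phospholipase C beta and steer the migration of the cell. G protein-coupled receptor kinases and arrestins end the signal, and RGS proteins speed the return of the G protein to rest. Monocytes are known for CCR2, CX3CR1 and CCR1 and neutrophils for CXCR2, while CXCR4 retains haematopoietic cells in the bone marrow. CNR2 encodes the cannabinoid receptor of immune cells, which couples to the same class of G proteins.

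Total counts ranged from 5871097 to 14308650 in the MRT199665 libraries and from 9517907 to 11994657 in the vehicle libraries. A count of 3, the limit that a count of 0 allows, was worth between 0.213 and 0.507 CPM, which covers counting error only. CPM is the count in proportion to the library's total after TMM scaling. On the first principal component of log2 CPM (46.8% of the variance) the treatments were mixed. MRT199665 replicate 2 had a score of 48.4 there and vehicle replicate 2 one of -36.8. These are the ends of that component, and vehicle replicate 1, at 10.6, is also far from the other vehicle libraries. Values that rest on these libraries are given with and without them. On the second component (26.3% of the variance) the groups did not overlap. Scores there lay between -26.4 and -5.94 with MRT199665 and between 0.954 and 35.3 with vehicle. Of 9 myeloid markers the most abundant were SPI1 (68.0 CPM with MRT199665, 65.7 with vehicle), CSF3R (163 CPM with MRT199665, 124 with vehicle) and MPO (89.7 CPM with MRT199665, 65.1 with vehicle). CEBPA was listed at 0 in all 6 libraries. LYZ (3.60 CPM with MRT199665, 1.51 with vehicle) and ITGAM (2.06 CPM with MRT199665, 1.02 with vehicle) were low, and ANPEP (0.937 CPM with MRT199665, 1.72 with vehicle) had the opposite direction. The 9 myeloid markers summed to between 375 and 409 CPM in the MRT199665 libraries and between 294 and 333 CPM in the vehicle libraries, and the part of this in the receptor differences was not tested. The T cell markers summed to at most 0.529 CPM in any library and the erythroid markers to at most 0.0709. The B cell markers summed to between 5.36 and 6.76 CPM with MRT199665 and between 6.29 and 7.98 CPM with vehicle, the megakaryocyte markers to between 2.27 and 5.07 CPM with MRT199665 and between 1.59 and 3.09 CPM with vehicle, and the fibroblast markers to between 2.84 and 5.41 CPM with MRT199665 and between 2.60 and 3.05 CPM with vehicle. NCAM1 (66.0 CPM with MRT199665, 74.2 with vehicle) and CDH1 (39.4 CPM with MRT199665, 48.6 with vehicle), listed as markers of natural killer and epithelial cells, were abundant, while KLRD1, NCR1, EPCAM, KRT8 and KRT18 were at or near 0. In bulk libraries a change in the share of cells that carry a receptor cannot be told apart from a change in RNA per cell.

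With MRT199665, the cells held more transcripts of the cannabinoid receptor gene CNR2, of the monocyte chemokine receptor gene CCR2 and of PTAFR, the receptor for platelet-activating factor. CNR2 averaged 6.11 ± 0.982 CPM in MRT199665 libraries and 1.14 ± 0.194 CPM in vehicle libraries (SD, n = 3 each). CCR2 averaged 116 ± 13.8 CPM in MRT199665 libraries and 51.1 ± 9.30 CPM in vehicle libraries, and PTAFR averaged 22.9 ± 1.52 CPM in MRT199665 libraries and 10.5 ± 0.725 CPM in vehicle libraries (SD, n = 3 each). The differences of CXCR4 and CCR1 were smaller, that of CX3CR1 varied between libraries, and FPR1, C3AR1 and C5AR1 were near the limit of detection. Of the 10 receptor genes, 7 passed the filter on low counts, and each of the 7 reached the filter's 0.839 CPM (on unscaled totals) in all 3 libraries of both groups. Of these, 3 were called higher (CNR2, CCR2 and PTAFR) by edgeR's quasi-likelihood test at a Benjamini-Hochberg adjusted p under 0.05 over all 13053 genes tested, and 0.850% of all genes tested were called higher. DESeq2 called CXCR4 and CX3CR1 higher as well, with 1.66% of all genes higher by that tool, and limma-voom called the same 3 as edgeR, with 0.820% of all genes higher. The 3 were also called without both replicates 2 and without vehicle replicate 1. None of the 7 was called lower, against 0.398% of all genes by edgeR, 1.12% by DESeq2 and 0.383% by limma-voom, and none had a negative log2 fold change. In 6 of the 7 every MRT199665 library lay above every vehicle library, which was so for 11.4% of all genes tested. Nothing is read from these counts, since the genes were chosen on this comparison.

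**Figure D1:**
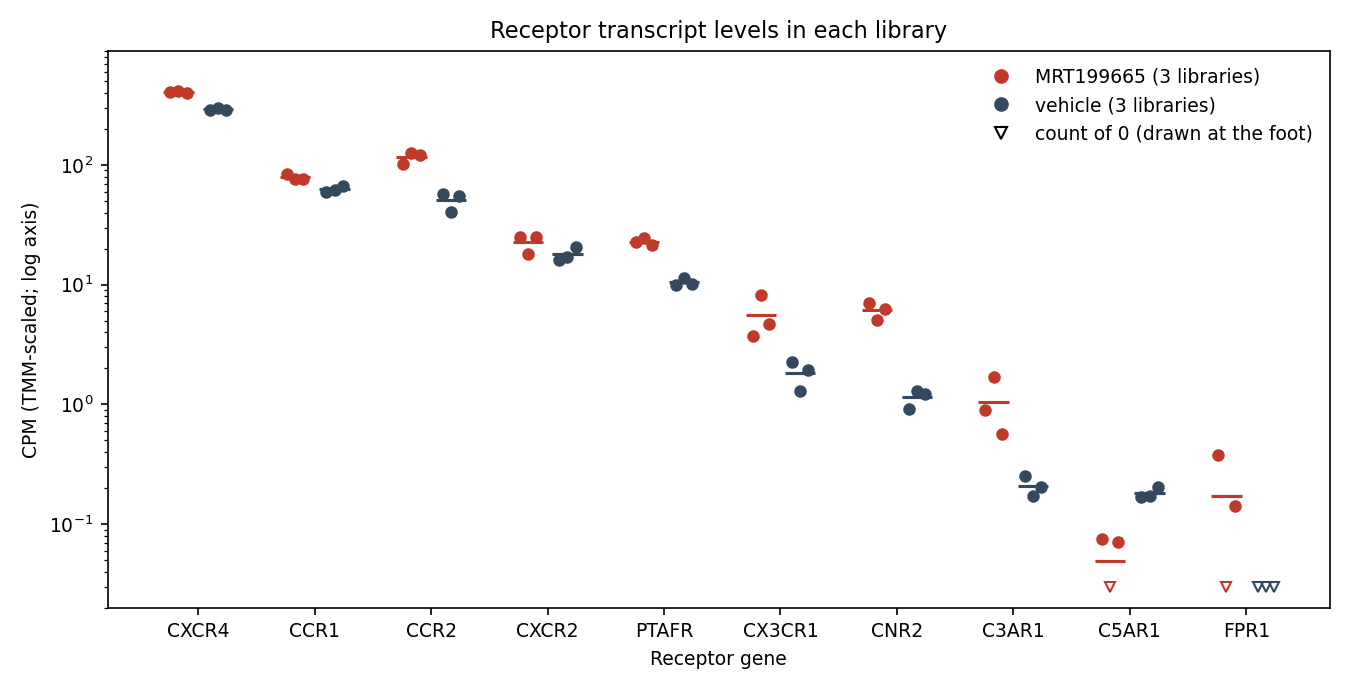
Level of each receptor gene in CPM on a log axis, with 3 MRT199665 libraries to the left of 3 vehicle libraries, bars at the group means and open triangles for a count of 0. CNR2, CCR2 and PTAFR show a wide gap between the groups, CXCR2 overlaps, and FPR1 has no count in any vehicle library.

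CNR2 had 93, 30 and 88 counts in MRT199665 replicates 1, 2 and 3, against 11, 15 and 12 in vehicle replicates 1, 2 and 3. As levels these were 7.02, 5.07 and 6.24 CPM with MRT199665 and 0.923, 1.29 and 1.22 CPM with vehicle. The groups did not overlap, and the lowest MRT199665 library was the shallowest one, replicate 2. The fold change was 5.38 (log2 fold change 2.43 ± 0.25, SE), at the 99.9th percentile of the log2 fold changes of all genes tested. The call held with each of the 6 libraries omitted in turn, with a log2 fold change between 2.29 and 2.53. An antisense gene overlaps CNR2 in GENCODE release 29, as does the processed pseudogene BTBD6P1 on the same strand. How reads of such overlaps were counted is not stated, so they cannot be told apart here. With vehicle CNR2 ranked low among the genes tested, at the 6.94th percentile of the mean vehicle level.

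PTAFR had 302, 145 and 303 counts in MRT199665 replicates 1, 2 and 3, against 119, 132 and 100 in vehicle replicates 1, 2 and 3. Its levels were 22.8, 24.5 and 21.5 CPM with MRT199665 and 9.98, 11.3 and 10.2 CPM with vehicle. Libraries of a group were close to each other, with a coefficient of variation of 6.63% with MRT199665 and 6.91% with vehicle, and the groups lay far apart. The fold change was 2.18 (log2 fold change 1.12 ± 0.13, SE). Leaving out vehicle replicate 3 ended the call, at a log2 fold change of 1.10, and leaving out any of the other 5 libraries did not.

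CCR2, the receptor for CCL2 that brings monocytes out of the marrow, had levels of 101, 126 and 122 CPM in MRT199665 replicates 1, 2 and 3. In vehicle replicates 1, 2 and 3 it had 57.5, 40.4 and 55.4 CPM. Every MRT199665 library was higher, and the highest and the lowest value came from the libraries with the most extreme first-component scores. The fold change was 2.28 (log2 fold change 1.19 ± 0.16, SE). Without both replicates 2 the log2 fold change was 0.98 and CCR2 was still called. The call ended without MRT199665 replicate 3 (log2 fold change 1.14) and without vehicle replicate 3 (1.25).

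The start regions of these 3 genes are shown because they are the receptors called higher. The windows run from 250 bases before to 50 bases after the start of a RefSeq transcript on GRCh38.p14, a later build than the hg19 of the counts, and they were found by symbol for all 10 receptors. The CNR2 window is chr1:23913313-23913612 on the minus strand and the CCR2 window is chr3:46353861-46354160 on the plus strand. PTAFR has an upstream window at chr1:28193807-28194106 and a downstream window at chr1:28176641-28176940, both on the minus strand. Capitals mark matches on either strand to TGANTCA, a loose form of the AP-1 site with any middle base, or to GAGGAA, a core that PU.1 binds.
CNR2: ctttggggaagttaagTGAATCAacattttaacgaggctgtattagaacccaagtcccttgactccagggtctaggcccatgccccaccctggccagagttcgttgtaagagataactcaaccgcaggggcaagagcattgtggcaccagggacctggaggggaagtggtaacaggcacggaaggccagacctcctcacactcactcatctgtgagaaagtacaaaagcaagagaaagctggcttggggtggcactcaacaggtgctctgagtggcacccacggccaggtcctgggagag
CCR2: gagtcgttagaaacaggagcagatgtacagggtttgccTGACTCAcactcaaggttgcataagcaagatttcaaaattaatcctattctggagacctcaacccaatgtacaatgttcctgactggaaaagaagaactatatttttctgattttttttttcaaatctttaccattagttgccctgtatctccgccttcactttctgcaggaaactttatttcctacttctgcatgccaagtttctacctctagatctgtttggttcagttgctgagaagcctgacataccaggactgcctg
PTAFR upstream: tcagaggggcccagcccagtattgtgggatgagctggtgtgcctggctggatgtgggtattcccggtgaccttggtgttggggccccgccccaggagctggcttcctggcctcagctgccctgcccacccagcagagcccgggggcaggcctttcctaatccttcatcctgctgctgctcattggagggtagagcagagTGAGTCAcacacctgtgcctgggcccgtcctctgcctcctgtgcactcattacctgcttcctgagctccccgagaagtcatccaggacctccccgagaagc
PTAFR downstream: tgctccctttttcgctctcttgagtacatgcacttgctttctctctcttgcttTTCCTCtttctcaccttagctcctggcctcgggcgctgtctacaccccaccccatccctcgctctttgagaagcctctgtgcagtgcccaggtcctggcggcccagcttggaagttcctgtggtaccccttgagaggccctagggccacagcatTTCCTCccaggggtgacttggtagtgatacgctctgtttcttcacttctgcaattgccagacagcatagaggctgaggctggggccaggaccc
A match to TGANTCA lay in the windows of CNR2, CCR2, PTAFR (upstream), FPR1 and C3AR1, and in 7.71% of all 35116 windows in the table. The middle base was A in CNR2 and C or G in the others, and the AP-1 site proper has C or G there. A match to GAGGAA lay in windows of CXCR4, CX3CR1, C5AR1 and PTAFR (downstream), against 27.9% of all windows. Both shares are of single windows, whereas CXCR4 and CX3CR1 had 3 windows each, PTAFR 2 and each other receptor 1. TGACGTCA, the cyclic AMP response element, and the MEF2 consensus had no match in the windows of the 10 receptors, and matched in 1.85% and 2.99% of all windows. The motifs do not overlap in these windows. Such matches describe the letters only, and which start site the cells used is not shown by 3′ counts.

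CXCR4, the receptor for CXCL12, was the most abundant of the 10 genes and varied little. It had 409, 413 and 403 CPM in MRT199665 replicates 1, 2 and 3, and 290, 302 and 290 CPM in vehicle replicates 1, 2 and 3. The groups did not overlap, and the fold change was 1.39 (log2 fold change 0.47 ± 0.10, SE). CXCR4 was not called by edgeR and was called by DESeq2. Its share of the summed receptor CPM was 62.6%, 61.4% and 61.1% in MRT199665 replicates 1, 2 and 3, and 66.4%, 69.3% and 65.1% in vehicle replicates 1, 2 and 3.

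CCR1, a receptor for CCL3 and CCL5 whose gene lies in the same chemokine receptor cluster of chromosome 3 as CCR2, had 84.2, 75.7 and 76.3 CPM with MRT199665 and 59.3, 62.1 and 66.2 CPM with vehicle. The fold change was 1.26 (log2 fold change 0.33 ± 0.11, SE), and CCR1 was not called. The ratio of CCR2 to CCR1 was 1.20, 1.67 and 1.60 in MRT199665 replicates 1, 2 and 3, and 0.969, 0.651 and 0.837 in vehicle replicates 1, 2 and 3. CCR2 was thus the more abundant of the pair in each MRT199665 library and CCR1 in each vehicle library. CCR3 overlaps CCR1 on the opposite strand in GENCODE release 29 and had at most 4 counts in a library. CXCR2, a receptor for interleukin 8, had 25.1, 17.9 and 24.9 CPM with MRT199665 and 16.2, 17.2 and 20.7 CPM with vehicle. MRT199665 replicate 2 lay inside the vehicle range, and the log2 fold change was 0.35 ± 0.17 (SE) with that library and 0.48 without it, with no call in either fit. Its neighbour and close relative CXCR1 had 3 counts over the MRT199665 libraries and 1 over the vehicle libraries.

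CX3CR1, the fractalkine receptor of monocytes, had 49, 49 and 66 counts in MRT199665 replicates 1, 2 and 3, against 27, 15 and 19 in vehicle replicates 1, 2 and 3. Its levels were 3.70, 8.28 and 4.68 CPM with MRT199665 and 2.27, 1.29 and 1.93 CPM with vehicle. The groups did not overlap, but MRT199665 replicate 2 was well above the other treated libraries. The log2 fold change was 1.54 ± 0.36 (SE) and was not called by edgeR, whereas DESeq2 called it, as did edgeR without the low-count filter. It was 1.19 without MRT199665 replicate 2, 1.32 without vehicle replicate 2, 0.98 without both and 1.73 without vehicle replicate 1. The order of the libraries within each group followed the first component for CCR2 and CX3CR1, which were highest in the library with the highest score and lowest in the library with the lowest. CNR2 had the opposite order in both groups. Without both replicates 2 the log2 fold change of CNR2 was 2.63. The part of this component in the differences was not tested.

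**Figure D2:**
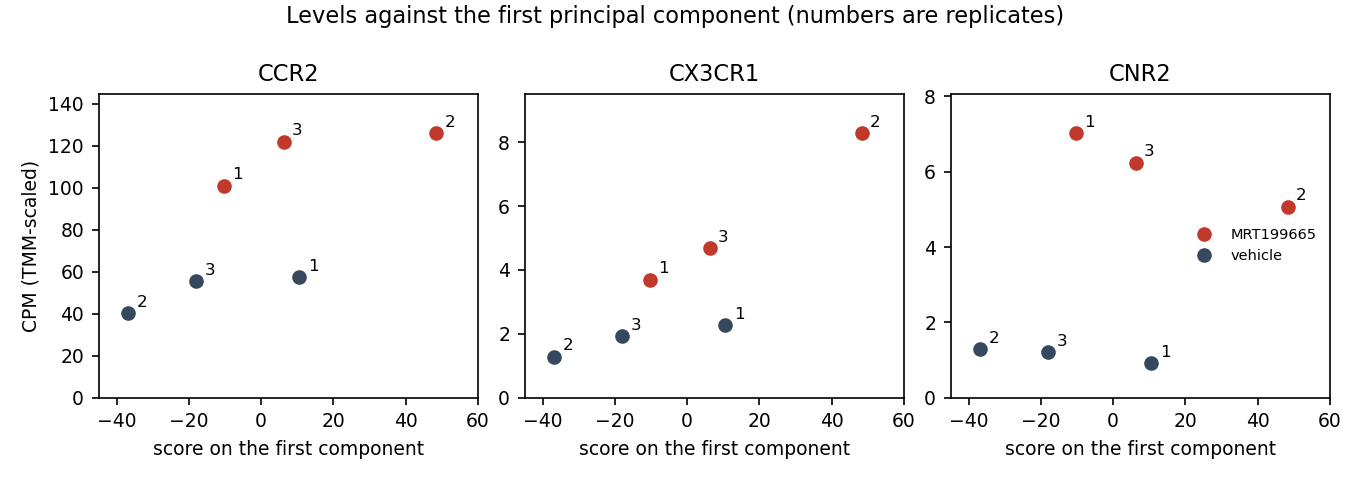
CPM of CCR2, CX3CR1 and CNR2 in each library against its score on the first principal component, with MRT199665 and vehicle libraries in separate colours and replicate numbers beside the points. CCR2 and CX3CR1 climb with the score inside each group and CNR2 declines, and MRT199665 replicate 2 lies at 48.4.

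The receptors for complement fragments and formylated peptides were barely counted. C3AR1, the receptor for the fragment C3a, had 12, 10 and 8 counts in MRT199665 replicates 1, 2 and 3, against 3, 2 and 2 in vehicle replicates 1, 2 and 3. The groups did not overlap in CPM (between 0.567 and 1.69 with MRT199665, between 0.172 and 0.252 with vehicle), and the gene failed the filter, with 2 MRT199665 libraries and no vehicle library over its minimum. FPR1, the formyl peptide receptor, had 5, 0 and 2 counts with MRT199665 and 0 in each vehicle library, and C5AR1, the receptor for C5a, had 1, 0 and 1 with MRT199665 and 2, 2 and 2 with vehicle. No fold is given for these 3 genes, whose vehicle counts lay at or under 3 in every library, and differences were not detectable at this depth for FPR1 and C5AR1. FPR2 and FPR3, relatives of FPR1 that overlap it on the opposite strand in GENCODE release 29, had 6 and 1 counts over the MRT199665 libraries and 4 and 0 over the vehicle libraries. A low count in this table does not show that a transcript was absent. RAC2, a GTPase that leukocytes are known to express abundantly, had 18 counts over the MRT199665 libraries and 14 over the vehicle libraries, and MIF, a widely expressed cytokine, had 3 over the MRT199665 libraries and 2 over the vehicle libraries.

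Reads of a 3′ kit come from transcript ends and do not grow in number with transcript length, so the counted levels are given in order. Since RAC2 and MIF stood near 0 in this table, that order may differ from the order of the transcripts themselves. In the MRT199665 libraries the order by mean CPM was CXCR4, CCR2, CCR1, PTAFR, CXCR2, CNR2, CX3CR1, C3AR1, FPR1 and C5AR1. The library ranges of PTAFR and CXCR2 overlapped there, as did those of CNR2 and CX3CR1, those of FPR1 and C5AR1, and no other neighbours. In the vehicle libraries the order was CXCR4, CCR1, CCR2, CXCR2, PTAFR, CX3CR1, CNR2, C3AR1, C5AR1 and FPR1, and the ranges of CX3CR1 and CNR2 met at 1.29 CPM, those of C3AR1 and C5AR1 overlapped and no other neighbours did. CNR2, PTAFR, CCR2 and FPR1 each stood a place higher with MRT199665 than with vehicle. The place of PTAFR rested on MRT199665 replicate 2, since CXCR2 was above PTAFR in MRT199665 replicates 1 and 3. The 10 genes summed to 654, 673 and 660 CPM in MRT199665 replicates 1, 2 and 3, and 437, 436 and 446 CPM in vehicle replicates 1, 2 and 3.

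**Figure D3:**
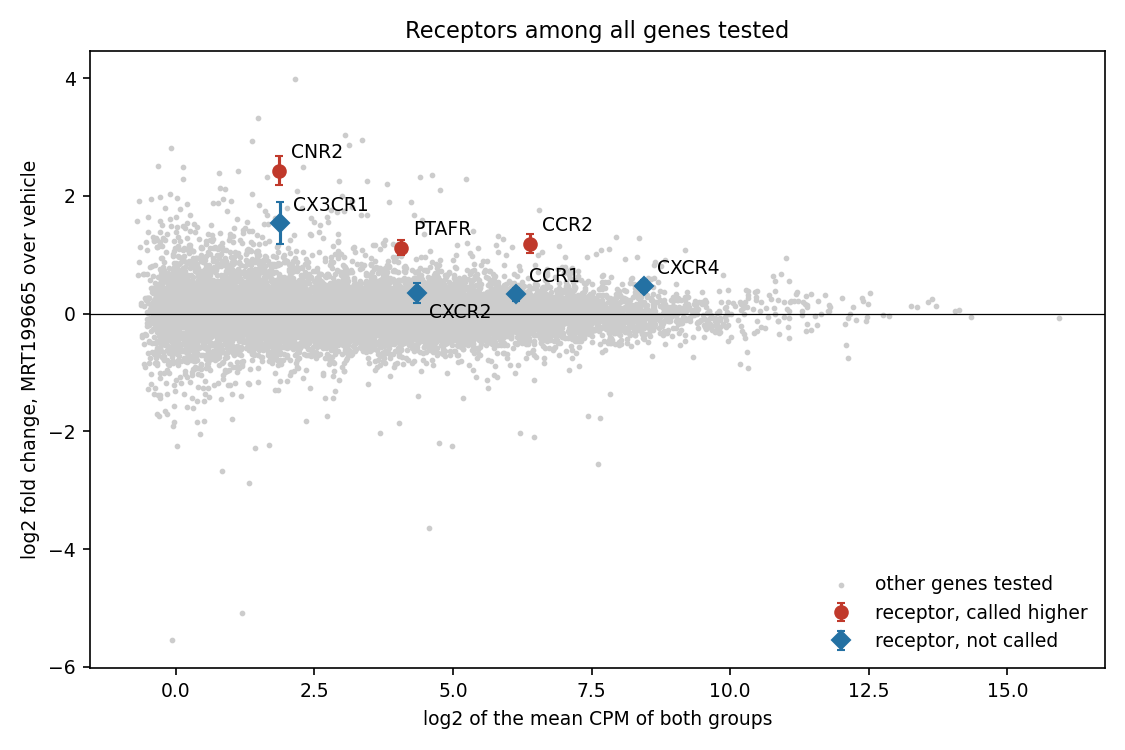
Log2 fold change of MRT199665 over vehicle against the log2 of the mean CPM of both groups, with all 13053 genes tested in grey and the 7 tested receptors with bars of 1 SE. The receptors lie above 0, from CCR1 at 0.33 to CNR2 at 2.43.

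Few ligands of these receptors had enough counts to test, and CCL5 fell. Of 24 listed ligands 7 were tested, and 1.25% of all genes tested were called in either direction. CCL5, a chemokine that binds CCR1, was called lower (edgeR quasi-likelihood test, adjusted p = 0.0288). CCL5 had 106, 105 and 103 CPM in MRT199665 replicates 1, 2 and 3, and 151, 199 and 181 CPM in vehicle replicates 1, 2 and 3. Each treated library was below each vehicle library, and the log2 fold change was -0.76 ± 0.13 (SE). The call held without vehicle replicate 1 and was lost without any of the other 5 libraries (edgeR adjusted p between 0.0711 and 0.187). CCL3, another ligand of CCR1, and IL8, the ligand of CXCR2 now named CXCL8, were singled out after their values were seen. CCL3 averaged 0.910 ± 0.228 CPM in MRT199665 libraries and 2.62 ± 0.533 CPM in vehicle libraries, and IL8 averaged 5.88 ± 0.609 CPM in MRT199665 libraries and 10.5 ± 1.44 CPM in vehicle libraries (SD, n = 3 each). Neither passed the threshold (edgeR adjusted p = 0.0732 for CCL3 and 0.0715 for IL8), while DESeq2 called IL8 lower and the fit without a low-count filter called both lower (of all genes, 1.12% lower with DESeq2 and 0.960% without a filter). CCL23, a ligand of CCR1, had the opposite direction, with an average of 4.52 ± 0.965 CPM in MRT199665 libraries and 2.25 ± 0.751 CPM in vehicle libraries (SD, n = 3 each, edgeR adjusted p = 0.176). At an unadjusted p under 0.05, 1 ligand was higher and 3 were lower, against 7.64% higher and 7.11% lower of all genes tested. CXCL12, the ligand of CXCR4, had a count of 0 in all 6 libraries. CCL2, the main ligand of CCR2, had 3, 4 and 4 counts in the MRT199665 libraries and 0 in each vehicle library, and no fold is given at these counts. The median log2 fold change of the tested ligands was -0.25, with 3 of 7 positive, against 0.01 over all genes tested.

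Of 30 other leukocyte chemoattractant receptors 9 were tested, and none was called by edgeR, DESeq2 or limma-voom. At an unadjusted p under 0.05, 4 were higher and 0 lower, against 7.64% higher and 7.11% lower of all genes tested, and the median log2 fold change was 0.15. C5AR2, the second receptor for C5a, had 2.49, 2.20 and 1.06 CPM with MRT199665 and 0.252, 0.858 and 0.916 CPM with vehicle (log2 fold change 1.48 ± 0.51, SE, edgeR adjusted p = 0.222). LTB4R, the leukotriene B4 receptor, and S1PR4, a sphingosine phosphate receptor, were abundant and were not called. LTB4R averaged 115 ± 12.2 CPM in MRT199665 libraries and 104 ± 9.45 CPM in vehicle libraries, and S1PR4 averaged 240 ± 26.0 CPM in MRT199665 libraries and 224 ± 40.0 CPM in vehicle libraries (SD, n = 3 each).

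Most genes listed for the machinery that these receptors share were tested, and none was called by edgeR with the low-count filter. Without that filter edgeR called ARRB2 higher and GNG7, RGS1 and RGS16 lower, with 1.32% of all genes higher and 0.960% lower. Among G protein subunits and direct effectors, 21 of 24 listed genes were tested, 2 were higher and 1 was lower at an unadjusted p under 0.05 (7.64% higher and 7.11% lower of all genes tested), and DESeq2 and limma-voom called none. GNAI2, the main inhibitory alpha subunit of leukocytes, averaged 208 ± 16.3 CPM in MRT199665 libraries and 178 ± 3.66 CPM in vehicle libraries (SD, n = 3 each). The tested genes with the lowest p were GNG7, a gamma subunit (log2 fold change -0.57 ± 0.16, SE, edgeR adjusted p = 0.149), and PLCB2, a phospholipase C beta (0.36 ± 0.11, SE, adjusted p = 0.173). The median log2 fold change of this list was 0.04. Among 16 desensitisation genes, all tested, 1 was higher and 3 were lower at an unadjusted p under 0.05, against 7.64% higher and 7.11% lower of all genes tested. DESeq2 called 1 of them, ARRB2, and limma-voom called none. ARRB2, an arrestin that binds phosphorylated receptors, averaged 86.7 ± 10.9 CPM in MRT199665 libraries and 55.4 ± 8.76 CPM in vehicle libraries (SD, n = 3 each, edgeR adjusted p = 0.0988). ARRB1, also an arrestin, averaged 60.6 ± 6.57 CPM in MRT199665 libraries and 62.2 ± 3.93 CPM in vehicle libraries (SD, n = 3 each). RGS1, which limits chemokine receptor signalling in leukocytes, averaged 3.03 ± 0.887 CPM in MRT199665 libraries and 5.76 ± 1.08 CPM in vehicle libraries (SD, n = 3 each, edgeR adjusted p = 0.131).

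Of 18 genes of the endocannabinoid system 13 were tested and 1 rose, against 0.850% of all genes tested. GPR55, a receptor for lysophosphatidylinositol that also responds to some cannabinoids, had 3.62, 2.87 and 2.62 CPM in MRT199665 replicates 1, 2 and 3, and 1.09, 1.20 and 1.02 CPM in vehicle replicates 1, 2 and 3. The groups lay apart, with a log2 fold change of 1.46 ± 0.27 (SE, edgeR adjusted p = 0.0454). The call was lost with each of the 6 libraries omitted in turn (edgeR adjusted p between 0.0926 and 0.236) and under limma-voom (adjusted p = 0.0551). At an unadjusted p under 0.05, 5 genes of the list were higher and 0 were lower, against 7.64% higher and 7.11% lower of all genes tested. Beside GPR55 these were FAAH, which degrades anandamide, NAPEPLD, which releases anandamide from its precursor lipids, ABHD12, a lipid hydrolase, and NAAA, an acid amidase, named after their values were seen. Their log2 fold changes were 0.51 for FAAH, 0.51 for NAPEPLD, 0.52 for ABHD12 and 0.36 for NAAA, and the median of the list was 0.36. MGLL, the monoacylglycerol lipase, averaged 9.82 ± 1.66 CPM in MRT199665 libraries and 10.8 ± 2.28 CPM in vehicle libraries (SD, n = 3 each). CNR1, the cannabinoid receptor of the brain, had a count of 0 in each MRT199665 library and of 1 in total with vehicle.

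**Figure D4:**
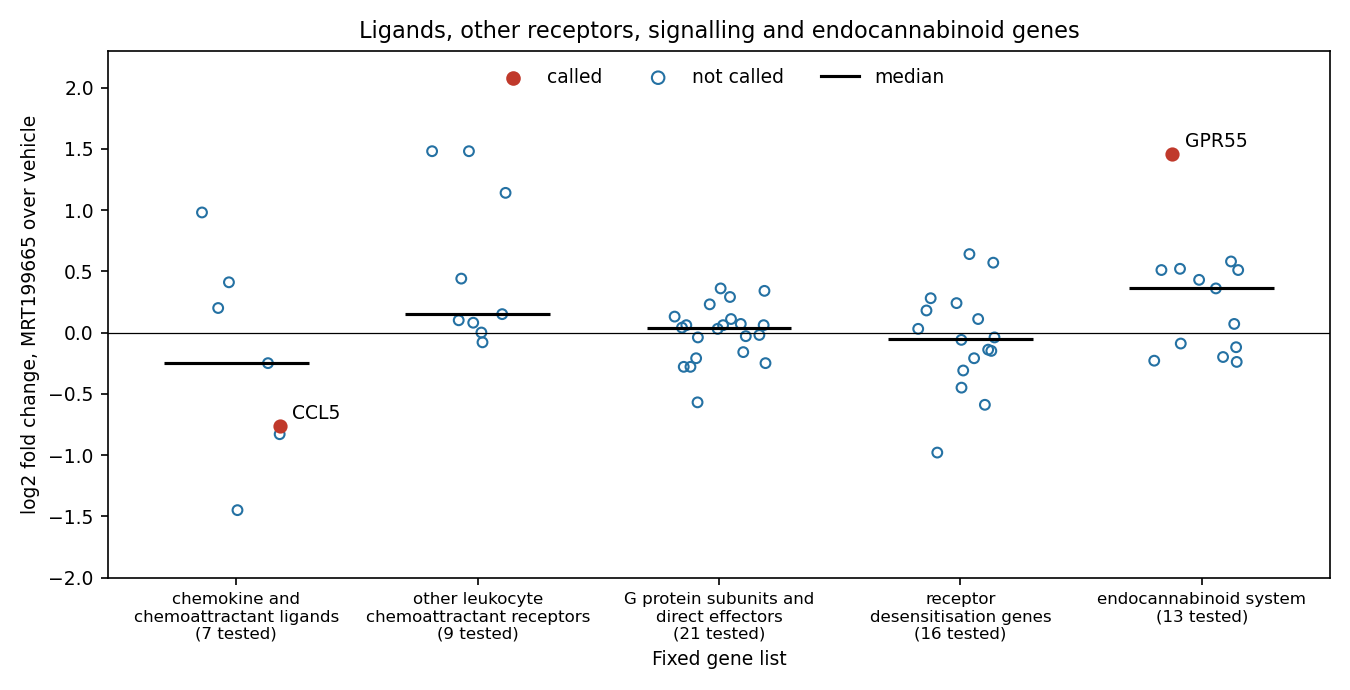
Log2 fold change of MRT199665 over vehicle for the tested genes of 5 lists, with called genes filled, others open and a line at each median. CCL5 at -0.76 and GPR55 at 1.46 are the called genes.

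The receptor differences kept their direction however the counts were processed, while their size moved most for CX3CR1. Over 14 alternatives the log2 fold change lay between 2.29 and 2.63 for CNR2, 0.98 and 1.28 for CCR2, 1.08 and 1.17 for PTAFR, and 0.45 and 0.48 for CXCR4. CX3CR1 had the widest range, between 0.98 and 1.77. None of the 7 tested receptors changed sign under any of the 14. With the replicate number added to the fit as a block, 0 receptors were called. The log2 fold changes in that fit were 2.41 for CNR2, 1.13 for PTAFR and 1.2 for CCR2.

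**Figure D5:**
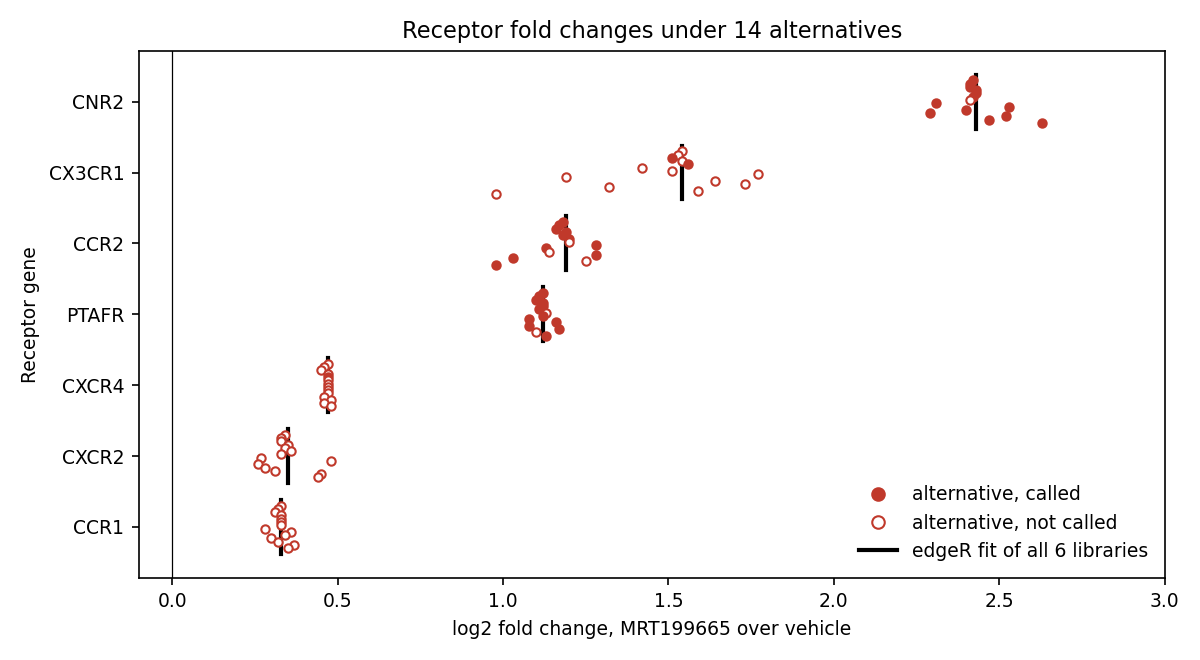
Log2 fold change of MRT199665 over vehicle for the 7 tested receptor genes, with a black bar for the edgeR fit of all 6 libraries and points for 14 alternatives, filled where the gene was called. CNR2 is called in 13 of 14, PTAFR in 12 and CCR2 in 11.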

How the data were processed

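Gene counts of 6 OCI-AML2 libraries, 3 per treatment, were grouped by their labels. STAR 2.4, HTSeq 0.6.1, DESeq2 and the hg19 build are named in the submitters' processing notes. The annotation, strand setting and read filters are not given in the sources used here, so reads of CNR2 and of its antisense gene in GENCODE release 29 cannot be told apart. The deposited table holds counts per gene symbol that were not normalized. The labels name a Lexogen 3′ kit.

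The test was the quasi-likelihood test of edgeR 4.0.16 (R 4.3.3) with TMM scaling and group as its term, after filterByExpr (at least 10 counts, total at least 15), two-sided, with Benjamini-Hochberg adjustment over 13053 genes. The SE was the size of the log2 fold change over the square root of F. Alternatives were other scalings and filters, DESeq2 1.42.0, limma-voom (limma 3.58.1), the replicate number as a block, and leaving out libraries. Run on simulated counts, the edgeR test missed most of the smallest changes put in and many of the 2-fold changes. Its false calls exceeded the nominal rate. The receptors and lists were chosen with earlier results of these data known. From each list, up to 4 called genes with the lowest p were named, or 2 where none was called, and family members at a receptor's locus; other genes were named after their values were seen. One gene that the rule would name is not reported here. Older symbols of 3 list genes were matched through RefSeq, as were promoter windows. Libraries of a group differed by a chi-square per degree of freedom of 9.53 or more, so none was treated as a copy.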

Additional observations from a re-analysis of the deposited data

How the results depend on the processing

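Over all genes, 111 were called higher and 52 lower. These counts were 373 and 271 without a low-count filter and 217 and 146 with DESeq2. Leaving out 1 library gave between 29 and 78 higher and between 20 and 55 lower. Of the receptors, 3 were called, 4 without a low-count filter and 5 with DESeq2. With 1 library left out between 1 and 3 were called, the lowest without vehicle replicate 3. In the 5 fixed lists 1 gene was called higher and 1 lower. There were 4 higher and 6 lower without a filter and 2 and 2 with DESeq2. Limma-voom called 0 higher. With 1 library left out there were 0 higher and between 0 and 1 lower, and without both replicates 2 there were 0 and 0. The leave-out fits used fewer libraries, and other causes were not tested.

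With the replicate block, 7 genes were called higher and 5 lower, of them 0 receptors and 0 and 0 genes of the fixed lists. Deviations of same-numbered libraries correlated at -0.55, -0.47 and 0.02 for numbers 1, 2 and 3, and those of differently numbered libraries at between -0.1 and 0.53. With 3 libraries per group these values cannot show whether a number stands for a shared culture or batch. The reason for the lost calls was not tested. The 7 tested receptors and the list genes named by rule kept their sign in each alternative, and other named genes were not recomputed. The scalings moved the median log2 fold change of all genes to between -0.009 and 0.006. FPR1, C3AR1 and C5AR1 stood at a few counts per library, too few to resolve a fold, and none was called without a filter.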

Other observations

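CXCR3, a receptor for interferon-induced chemokines that is known from T cells and is among the genes too low to be tested, was noticed after its values were seen. It had 6, 9 and 19 counts in MRT199665 replicates 1, 2 and 3, against 2, 2 and 0 in vehicle replicates 1, 2 and 3. The fit without a low-count filter called it higher, together with C5AR2, among the other chemoattractant receptors. In that fit 1.32% of all genes were called higher. Other receptors too low to be tested were likewise noticed after their values were seen. CCR4, a chemokine receptor known from T cells, had 13, 4 and 3 counts with MRT199665 and 0, 4 and 2 with vehicle. Its groups overlapped. P2RY13, a receptor for ADP, had 21 counts over the MRT199665 libraries and 8 over the vehicle libraries. In the opposite direction, CCR7 had 3 counts over the MRT199665 libraries and 8 over the vehicle libraries. CCR3 had 3 over the MRT199665 libraries and 7 over the vehicle libraries. No fold is given for these counts.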
